A study of Homo sapiens with 12 samples.

Results

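The 7 genes FOXO1, FOXO3, FOXO4, KLHL24, CCNG2, PIK3IP1 and IRS2 are described here in human multiple myeloma cell lines treated with a BET bromodomain inhibitor, with lenalidomide plus dexamethasone, or with all 3 drugs. They were represented by the 32 probe sets, of 49386 on the array, that the platform annotation assigns to 1 of these symbols alone, and 18239 genes in all had such a probe set. The genes were chosen with levels on these same arrays known, so their levels and differences are given as a description, without p-values. Transcripts were measured on 12 single-colour oligonucleotide arrays, 1 for each of 4 treatments in each of 3 lines labelled ARP1, JJN3 and RPMI-8226. Control cells were compared with cells given CPI203, a BET bromodomain inhibitor, at 0.01 µM, with cells given lenalidomide at 5 µM and dexamethasone at 0.05 µM together (LenDex), and with cells given all 3 drugs at those doses (Combo). Treatment lasted 6 h. Lenalidomide and dexamethasone were never given apart, so their effects cannot be told apart. The study asked whether CPI203 improves the activity of lenalidomide in myeloma.

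FOXO proteins are forkhead transcription factors that restrain growth. When insulin and growth factor receptors signal through IRS adaptors to PI3K and AKT, AKT phosphorylates the FOXO proteins and they leave the nucleus, and when that signal falls they return and activate genes of cell cycle arrest, stress resistance, autophagy and cell death. Several of their target genes feed back on the pathway itself. Among B lineage cells FOXO1 is needed at several stages of development, and glucocorticoids raise FOXO transcripts in many tissues. The arrays measure transcripts and say nothing of the phosphorylation or location of FOXO proteins.

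Levels are log2 probe set levels as deposited, and a difference of 1 is a 2-fold change. The median over all probe sets lay between 5.304 and 5.375 on each array, and between 32.2% and 35.3% of the probe sets lay below 5. No detection calls were used, so a level near 5 is written as low. Each gene is represented by its probe set with the highest mean, and the levels of different genes are not compared. Drug differences were estimated in limma with cell line as a block, with a standard error (SE). Each treatment had n = 3, 1 array per line. The SE comes from the residual variation of the fit, pooled over all treatments. It does not measure how far the lines varied in any single difference. The average effect of a drug is the mean of its difference without and with the other drug, over 6 arrays against 6. For KLHL24 the SE was 0.21 for both average effects, while the SD over lines was 0.77 for CPI203 and 0.07 for LenDex. The comparisons share arrays. All 7 genes passed the level filter.

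The arrays labelled JJN3 and RPMI-8226 were alike and lacked defining plasma cell transcripts. SDC1, the plasma cell antigen CD138, lay between 11.78 and 12.26 on the ARP1 arrays and between 4.96 and 5.79 on the other 8 arrays. The B cell gene MS4A1 (CD20) lay between 4.59 and 5.33 on ARP1 and between 11.48 and 12.06 on the others. Of 12 plasma cell markers 11 had a mean level of at least 7 on ARP1, 7 on JJN3 and 6 on RPMI-8226, and of 8 B cell markers 1, 8 and 8 did. The summed level of the plasma cell list ranged from 124.11 to 127.38 on ARP1, 93.12 to 98.86 on JJN3 and 87.47 to 94.10 on RPMI-8226, and that of the B cell list from 43.71 to 45.37, 75.96 to 77.79 and 73.47 to 76.47. The correlation r across genes, which are not independent replicates, was 0.963 to 0.981 between these 2 labels and 0.867 to 0.887 between either and ARP1. Within JJN3 it was 0.980 to 0.990 and within RPMI-8226 0.976 to 0.990, which overlap the values between the labels. A count of 3 of 3 lines below thus includes 2 labels that were this alike. The JJN3 control array carried IGKC at 9.32, against 5.11 to 5.55 on the other JJN3 arrays. T cell and monocyte marker lists had array medians of at most 5.10, and an erythroid list had medians from 5.02 to 6.56, highest on JJN3. Line names are used here as the labels of the arrays.

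Among the 7 genes, KLHL24 on its represented probe set was higher with either drug treatment in all 3 lines and highest with both. FOXO1, FOXO3 and PIK3IP1 stood well above the low range only on ARP1 arrays, where all were higher with LenDex. Of these PIK3IP1 differed most, by 1.84 on the log2 scale. CCNG2 was higher with CPI203 alone in all 3 lines, by 0.49 in the mean against control. By line this was 0.34, 0.97 and 0.16 in ARP1, JJN3 and RPMI-8226, with levels in or near the low range in ARP1 and RPMI-8226. On top of LenDex CPI203 gave -0.10, 0.76 and 0.20 for CCNG2 in ARP1, JJN3 and RPMI-8226. FOXO4 was lower with CPI203 alone, with a mean difference of -0.38, against 0.09 on top of LenDex. IRS2 was low on all arrays. The plot of levels by array shows the 7 genes on a common scale.

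**Figure D1:**
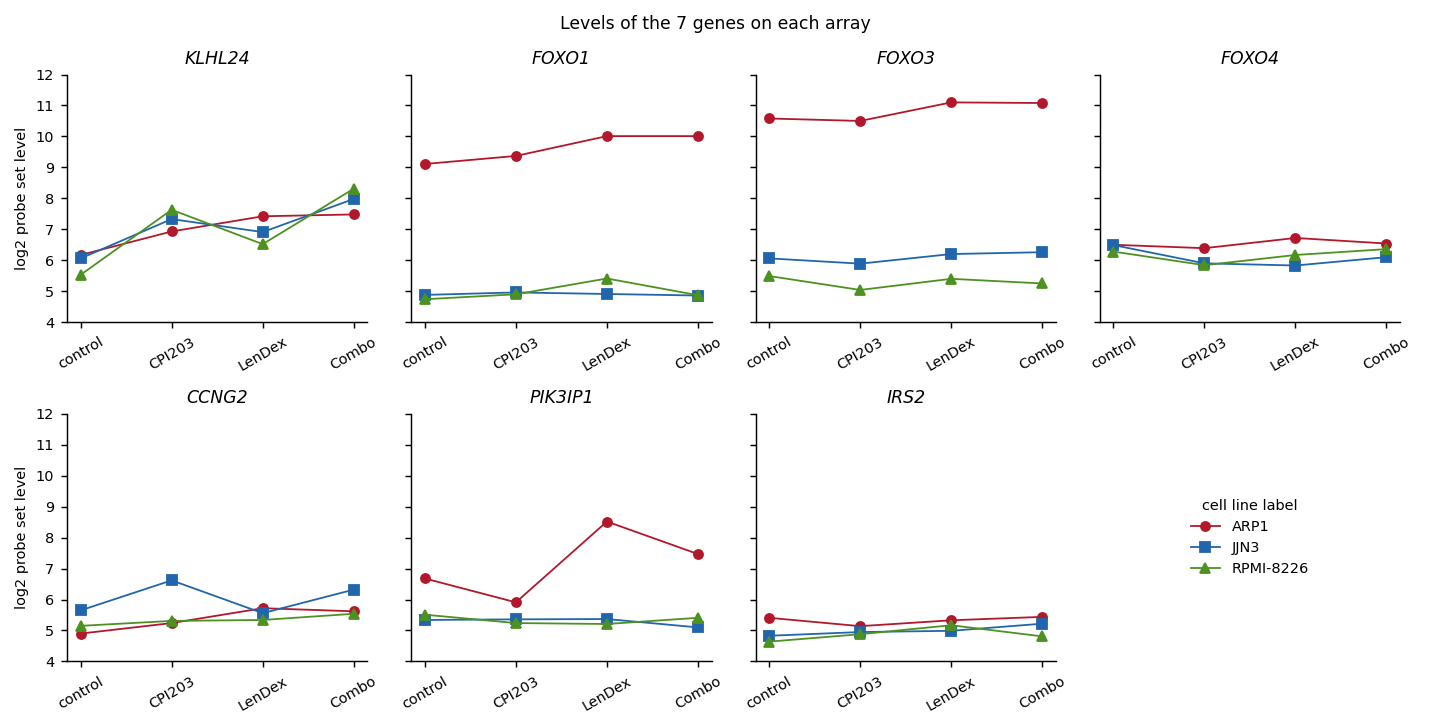
Log2 probe set level (y axis) of each of the 7 genes under the 4 treatments (x axis), with 1 point per array and a line joining the arrays of each cell line label. KLHL24 follows the treatments in all 3 lines, while FOXO1 and FOXO3 separate the ARP1 arrays from the others under every treatment.

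Promoter sequence is shown for 4 of the 5 genes in which a motif was found, leaving out IRS2, whose levels were low, to set the FOXO and MYC binding letters beside the expression values. The sequences and positions are those of RefSeq on GRCh38.p14, on the strand of the gene, from 250 bases before the annotated start to 50 after it, and all 7 genes matched by symbol, with 11 such windows. The FOXO core TGTTTAC, on either strand, stood in 1 window of PIK3IP1 and in that of FOXO4, and in 3.42% of all 35116 windows. Both matches lay past the start site, at base 17 and base 24. The E-box CACGTG, the letters that MYC and MAX bind, stood in the window of CCNG2, beginning 30 bases before the start, and in 7.26% of all windows. The palindromic glucocorticoid response element, AGAACA and TGTTCT set 3 bases apart, stood in none of the 11 windows and in 1 of all windows. The variant TGTTTTG of the insulin response sequence, which was added after the windows had been seen, stood in those of KLHL24 and IRS2, beginning 32 and 40 bases before the start, and in 4.92% of all windows. The capitals mark the matches below. A match is a description of letters and not a binding site.
PIK3IP1, chr22:31292454-31292483, minus strand: taaagagaggcTGTTTACcagaacagcata
FOXO4, chrX:71095863-71095892, plus strand: cccggcgagtgGTAAACAgagacgtcagga
CCNG2, chr4:77156957-77157206, plus strand: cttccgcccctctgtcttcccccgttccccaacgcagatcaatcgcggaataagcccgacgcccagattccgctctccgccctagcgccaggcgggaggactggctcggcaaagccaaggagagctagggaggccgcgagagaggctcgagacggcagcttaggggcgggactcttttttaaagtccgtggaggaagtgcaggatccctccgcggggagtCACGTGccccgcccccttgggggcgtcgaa
KLHL24, chr3:183635373-183635622, plus strand: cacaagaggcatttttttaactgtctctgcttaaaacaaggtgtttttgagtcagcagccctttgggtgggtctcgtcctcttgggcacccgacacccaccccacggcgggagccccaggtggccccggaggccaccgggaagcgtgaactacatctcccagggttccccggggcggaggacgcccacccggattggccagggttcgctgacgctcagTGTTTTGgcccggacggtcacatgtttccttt

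IRS2 encodes an adaptor that links the insulin and IGF receptors to PI3K, and its gene is itself a known FOXO target. Its levels under control, CPI203, LenDex and Combo were 5.41, 5.14, 5.33 and 5.44 on ARP1, 4.83, 4.95, 4.99 and 5.22 on JJN3, and 4.64, 4.88, 5.17 and 4.81 on RPMI-8226. All 12 values were low and the treatment groups overlapped. The average differences were 0.01 ± 0.10 (SE) for CPI203 and 0.18 ± 0.10 for LenDex, and the other IRS2 probe set gave 0.02 for both.

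PIK3IP1 encodes a transmembrane inhibitor of PI3K that restrains AKT signalling in lymphocytes. Its levels under control, CPI203, LenDex and Combo were 6.68, 5.91, 8.52 and 7.47 on the ARP1 arrays. The values were 5.34, 5.36, 5.37 and 5.10 on JJN3, and 5.51, 5.24, 5.21 and 5.41 on RPMI-8226. The ARP1 arrays with LenDex or Combo were the highest of the 12, and the JJN3 and RPMI-8226 arrays showed no level above 5.51 under any treatment. In ARP1 LenDex against control gave 1.84 (3.59-fold) and Combo against CPI203 1.56 (2.94-fold). CPI203 against control gave -0.77 and Combo against LenDex -1.05 in the same line, so that Combo stood 0.79 above control. Averaged over the 3 lines the LenDex difference was 0.51 ± 0.31 (SE) and without ARP1 it was -0.09.

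Of the 8 PIK3IP1 probe sets, 6 had a mean level of at least 6 on the ARP1 arrays. All 6 were higher with LenDex there, by 1.19 to 2.09 against control and by 0.86 to 2.50 on top of CPI203. On the JJN3 and RPMI-8226 arrays the same probe sets lay between -1.02 and 0.58 for LenDex against control. The lower PIK3IP1 level with CPI203 in ARP1 depended more on the probe set, with differences from control between -0.77 and -0.04 over the 6, and between -1.05 and 0.40 on top of LenDex. Of the others, 1 had a mean of 5.77 on ARP1 and gave 1.33 with LenDex alone and 0.02 on top of CPI203, and 1 had a mean of 4.61 and gave 0.04 and -0.24.

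FOXO1, the factor with the best known role in B cell development, was at 9.11, 9.37, 10.01 and 10.01 under control, CPI203, LenDex and Combo on the ARP1 arrays. It was at 4.88, 4.96, 4.91 and 4.86 on JJN3 and at 4.74, 4.90, 5.41 and 4.87 on RPMI-8226. The line means were 9.62 ± 0.46 (SD, n = 4), 4.90 ± 0.04 and 4.98 ± 0.29, over arrays that differ in treatment. The ARP1 arrays lay apart from all others, and the JJN3 and RPMI-8226 values overlapped. In ARP1 FOXO1 was higher by 0.90 with LenDex (1.87-fold) and by 0.64 with LenDex on top of CPI203, while CPI203 gave 0.26 against control and a difference near 0 on top of LenDex. A second FOXO1 probe set, at a mean of 7.96 on ARP1, gave 0.61 for the average LenDex difference in that line, beside 0.77 for the first. For CPI203 these probe sets disagreed in ARP1, at 0.13 and -0.72, and Combo against control gave 0.90 on the first and -0.11 on the second. In RPMI-8226 the first gave 0.67 with LenDex alone and -0.03 on top of CPI203, at low levels.

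FOXO3, the family member most studied as an inducer of death genes, was at 10.58, 10.50, 11.10 and 11.08 on the ARP1 arrays. It was at 6.06, 5.89, 6.20 and 6.26 on JJN3 and at 5.49, 5.04, 5.40 and 5.25 on RPMI-8226. No value of one line overlapped another line's, with ARP1 above JJN3 and JJN3 above RPMI-8226. In ARP1 FOXO3 was higher by 0.52 with LenDex and by 0.58 with LenDex on top of CPI203, which are 1.44-fold and 1.49-fold. The 3 FOXO3 probe sets gave average LenDex differences between 0.40 and 0.76 in ARP1. In JJN3 and RPMI-8226 the represented probe set gave 0.25 and 0.07. All 3 probe sets are of the kind that may hybridise with other transcripts. FOXO3B is a near-identical copy of FOXO3, so part of the signal may come from it, and 5 further probe sets annotated to both genes were not used.

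FOXO4, a smaller member of the family, was at 6.50, 6.39, 6.72 and 6.54 on ARP1, at 6.49, 5.90, 5.83 and 6.10 on JJN3 and at 6.28, 5.84, 6.17 and 6.36 on RPMI-8226. JJN3 overlapped both other lines, ARP1 lay above RPMI-8226, and no treatment stood apart. The average differences were -0.14 ± 0.11 (SE) for CPI203 and 0.06 ± 0.11 for LenDex. CPI203 alone gave -0.11, -0.59 and -0.44 in ARP1, JJN3 and RPMI-8226, but on top of LenDex it gave -0.18, 0.27 and 0.19. LenDex alone gave 0.22, -0.66 and -0.11, and on top of CPI203 0.15, 0.21 and 0.52. The other 6 FOXO4 probe sets had means between 4.94 and 5.12.

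FOXO1 and FOXO3 separated the lines the way the marker genes above did, with ARP1 at 4.68 and 5.12 above the mean of the other lines, and PIK3IP1 at 1.83. The corresponding gaps were 0.41 for FOXO4, 0.40 for IRS2, -0.04 for KLHL24 and -0.32 for CCNG2. The part of cell identity in these gaps was not tested. In bulk RNA fewer cells with a transcript and less transcript per cell cannot be told apart.

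**Figure D2:**
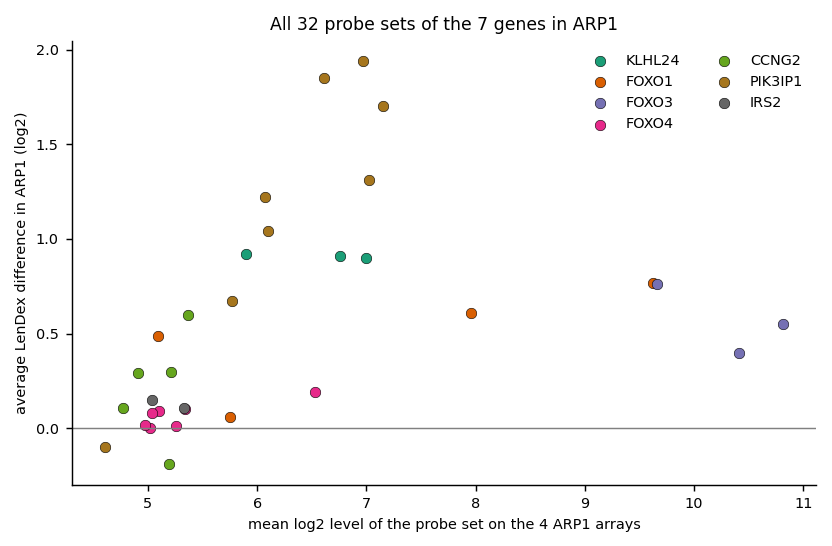
Average LenDex difference in ARP1 (y axis, log2) against the mean log2 level on the 4 ARP1 arrays (x axis) for each of the 32 probe sets, coloured by gene. The PIK3IP1 probe sets with a level of at least 6 lie between 1.04 and 1.94, and the 3 KLHL24 probe sets between 0.90 and 0.92.

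KLHL24, a kelch protein that serves as a substrate adaptor of a cullin ubiquitin ligase, has been listed among the genes that FOXO factors induce. Its levels under control, CPI203, LenDex and Combo were 6.17, 6.93, 7.42 and 7.48 on ARP1. On JJN3 they were 6.06, 7.33, 6.91 and 7.98, and on RPMI-8226 they were 5.53, 7.63, 6.52 and 8.31. The 3 control arrays were the lowest of the 12. The Combo arrays lay above all LenDex arrays and overlapped the CPI203 arrays. The group means were 5.92 ± 0.35 (SD, n = 3) in control, 7.30 ± 0.35 with CPI203, 6.95 ± 0.45 with LenDex and 7.92 ± 0.42 with Combo.

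Against control KLHL24 was higher by 1.38 ± 0.30 (SE) with CPI203, by 1.03 ± 0.30 with LenDex and by 2.0 ± 0.30 with Combo, a 4.01-fold difference. On the represented probe set the CPI203 difference varied between lines, at 0.75 in ARP1, 1.28 for JJN3 and 2.11 for RPMI-8226. On top of LenDex it was 0.06, 1.07 and 1.79. The other KLHL24 probe sets gave average CPI203 differences of 0.36, 0.81 and 0.59, and of 0.34, 1.75 and 0.88, in the same line order. Both were highest in JJN3. On the represented probe set the LenDex difference was more even, at 1.24, 0.85 and 0.99 alone. On top of CPI203 it was 0.55, 0.65 and 0.68. Combo was below the sum of the separate differences in each line, at -0.70 for ARP1, -0.20 for JJN3 and -0.32 for RPMI-8226. The mean of these was -0.41 ± 0.43 (SE), smaller than its error, and the other KLHL24 probe sets gave 0.28 and 0.39.

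All 3 KLHL24 probe sets were higher in the mean over lines with CPI203, by average differences of 0.59 to 1.18, and with LenDex, by 0.46 to 0.83. They did not agree on the JJN3 and RPMI-8226 arrays. In JJN3 LenDex alone gave 0.85 on the represented probe set, and 0.84 and -0.16 on the others. In RPMI-8226 a second probe set read 6.98 in control and 6.12 with LenDex, a difference of -0.86. The represented probe set read 5.53 and 6.52 there. In ARP1 the average LenDex differences of the 3 probe sets were 0.90, 0.91 and 0.92, made up of 1.24, 0.88 and 0.92 without CPI203 and 0.55, 0.95 and 0.91 with it.

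**Figure D3:**
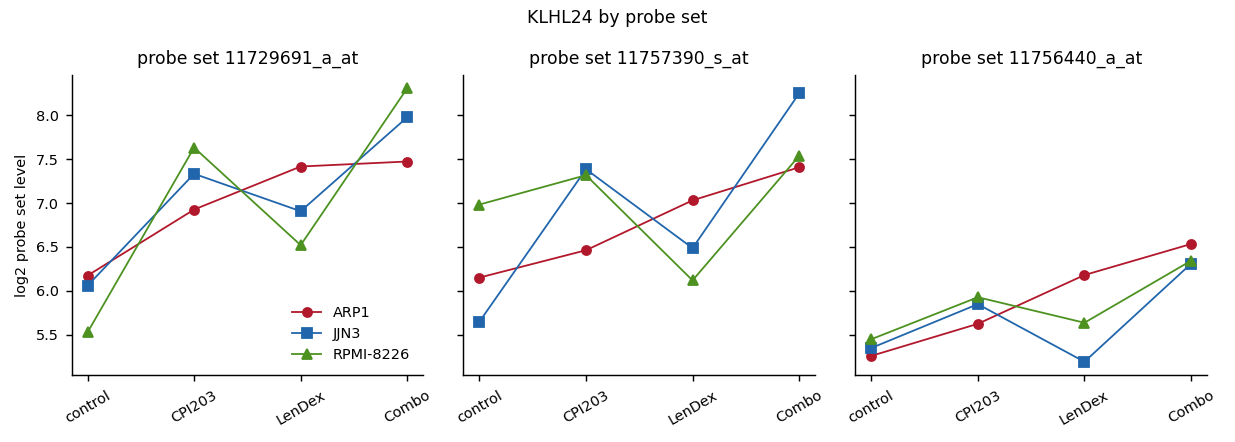
Log2 level (y axis) of the 3 KLHL24 probe sets, each in a panel, under the 4 treatments (x axis), with 1 point per array and a line per cell line label. Combo is above control in every line and probe set, and the RPMI-8226 control array is at 6.98 in the middle panel against 5.53 in the left one.

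CCNG2 encodes cyclin G2, an unconventional cyclin that slows the cell cycle and is a direct FOXO target. Its levels under control, CPI203, LenDex and Combo were 4.90, 5.24, 5.72 and 5.62 on ARP1, 5.65, 6.62, 5.56 and 6.32 on JJN3, and 5.15, 5.31, 5.34 and 5.54 on RPMI-8226. JJN3 arrays with CPI203 or Combo were the highest, and the treatment groups overlapped. The ARP1 and RPMI-8226 values, at most 5.72 and 5.54, lay in or near the low range. Combo against control gave 0.72, 0.68 and 0.39 in ARP1, JJN3 and RPMI-8226, and 0.60 ± 0.23 (SE) in the mean. The average CPI203 difference was 0.39 ± 0.16, with 0.12, 0.87 and 0.18 by line and 0.15 in the fit without JJN3. That of LenDex was 0.21 ± 0.16, and 0.01 in the fit without ARP1. A second CCNG2 probe set gave 0.56 and 0.38, positive in all 3 lines for both drugs, while 1 of the other 3 gave -0.20 for CPI203.

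**Figure D4:**
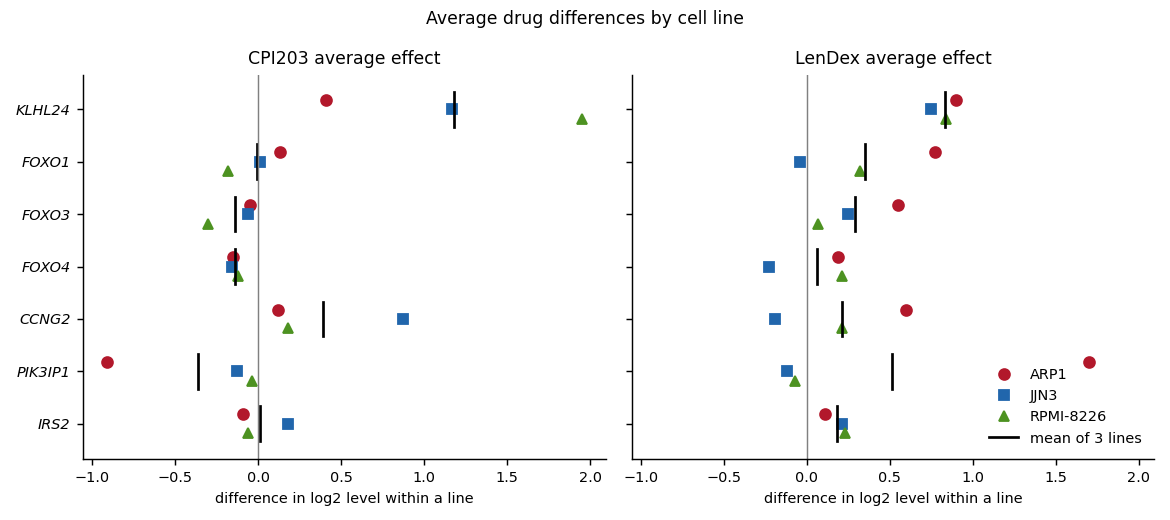
Average difference in log2 level (x axis) with CPI203 (left) and with LenDex (right) for the 7 genes, with 1 point per cell line label and a black bar at the mean of the 3 lines. With CPI203 the KLHL24 points, on the represented probe set, run from 0.41 in ARP1 to 1.95 in RPMI-8226. With LenDex the PIK3IP1 point of ARP1 is at 1.70 while the other lines are at -0.12 and -0.07.

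Among the 7 genes the limma fit called KLHL24 for the CPI203 average effect and for Combo against control, at an adjusted p under 0.05. Over all 15173 genes tested 7.28% were called for the CPI203 average effect, 4.25% for the LenDex average effect and 9.15% for Combo against control. The shares higher and lower were 3.3% and 3.99%, 1.73% and 2.52%, and 3.55% and 5.6% in that order. For CPI203 alone the share was 0.00659% and for LenDex alone 0.461%, with none of the 7 genes among them. Since the genes were chosen with these values known, nothing is read from their calls or their count. Without the JJN3 control array KLHL24 was called for Combo against control only, and for no comparison once JJN3 or RPMI-8226 was left out or their arrays were averaged into 1 line. Its Combo difference was then 2.06 ± 0.37, 2.04 ± 0.45, 1.61 ± 0.25 and 1.83 ± 0.34 (SE) in that order. The same fits called 300, 0, 2 and 3 of all genes for Combo against control.

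The wider pathway was then examined through lists from general knowledge, chosen with earlier results of these data known. Their counts and p-values are therefore not an independent test. Of 37 other FOXO target genes tested, 4 rose with CPI203 and none fell in the average effect, with a list median of 0.22 against -0.003 over all genes, where 3.3% rose. GADD45B, a stress sensor of growth arrest, rose by 1.05 ± 0.18 (SE, limma adjusted p = 0.0191), and the glucose uptake inhibitor TXNIP by 0.72 ± 0.15 (adjusted p = 0.0283), both higher in 3 of 3 lines. CITED2, a transcriptional coregulator, rose by 0.65 ± 0.17 (adjusted p = 0.0462), with -0.02 in ARP1 against 0.97 and 1.0 in the other lines. SESN2, a stress-induced inhibitor of mTORC1 signalling, rose by 0.59 ± 0.07 (adjusted p = 0.00956), evenly over ARP1, JJN3 and RPMI-8226 at 0.62, 0.52 and 0.64.

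With LenDex 5 of these 37 genes rose on average and none fell, with a list median of 0.09 against 0.01 over all genes, where 1.73% rose. Over all genes 40.6% of the LenDex calls were higher, and 59.1% after cyclic loess scaling of the arrays. TSC22D3, the glucocorticoid mediator GILZ, rose by 3.58 ± 0.24 (SE, limma adjusted p = 0.000225). DDIT4, an mTORC1 inhibitor, rose by 1.54 ± 0.24 (adjusted p = 0.0112), and in ARP1, JJN3 and RPMI-8226 its differences were 2.51, 0.98 and 1.13. The zinc finger factor gene KLF6 rose by 1.32 ± 0.27 (adjusted p = 0.0295), with the lowest value, 0.30, in ARP1. TXNIP rose by 0.89 ± 0.15 (adjusted p = 0.016), and the death gene BBC3 (PUMA), named after its values were seen, by 0.77 ± 0.11 (adjusted p = 0.0087), both in 3 of 3 lines. TSC22D3, DDIT4 and TXNIP are also on the list of glucocorticoid-induced genes, of which 5 of 11 rose.

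TXNIP resembled KLHL24 in being higher with each treatment. Its levels under control, CPI203, LenDex and Combo were 11.13, 11.39, 12.36 and 12.65 on ARP1, 10.56, 11.27, 11.13 and 11.94 on JJN3, and 9.57, 10.87, 10.56 and 11.51 on RPMI-8226. In every line the control array was lowest and the Combo array highest.

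Of 26 anti-proliferative and quiescence genes 4 rose with CPI203 and none fell, with a median of 0.25. Over all genes 3.3% rose and 3.99% fell. TOB1, an anti-proliferative adaptor of mRNA deadenylation, rose by 1.06 ± 0.21 (SE, limma adjusted p = 0.0226), the MYC antagonist MXD1 by 0.91 ± 0.22 (adjusted p = 0.0385) and the CDK4/6 inhibitor gene CDKN2D by 0.59 ± 0.12 (adjusted p = 0.0226). In ARP1 these differences were 0.18, 0.11 and 0.21, below those of the other lines. The chromatin reader ING4 rose by 0.26 ± 0.06 (adjusted p = 0.0393).

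With LenDex 5 of the 26 rose and none fell, with a median of 0.14. Over all genes 1.73% rose and 2.52% fell. TSPYL2 rose by 1.43 ± 0.15 (SE, limma adjusted p = 0.00341), and the p53-induced autophagy gene TP53INP1 by 0.74 ± 0.10 (adjusted p = 0.00679). The transcriptional repressor HBP1 rose by 0.58 ± 0.14 (adjusted p = 0.0496), ING4 by 0.51 ± 0.06 (adjusted p = 0.00664) and FBXW7, which directs MYC and cyclin E to the proteasome and was named after its values were seen, by 0.51 ± 0.11 (adjusted p = 0.0371). Each was higher in 3 of 3 lines.

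Against control, Combo raised 8 of the 37 FOXO target genes and 8 of the 26 anti-proliferative genes and lowered none of either, with medians of 0.23 and 0.63 against 0.01 over all genes, where 3.55% rose. Without the JJN3 control array 5 and 4 rose. With JJN3 left out, with RPMI-8226 left out, or with those arrays averaged none rose in this comparison. Those fits called only 0, 2 and 3 of all genes for Combo, so these counts say little of the lists. The medians were 0.25, 0.21 and 0.23 for the first list and 0.45, 0.47 and 0.53 for the second. For the average effects of CPI203 and LenDex without the JJN3 control array, 1 and 4 FOXO target genes and 0 and 3 anti-proliferative genes rose. Without ARP1 Combo raised 14 and 12, and CPI203 raised 12 and 8 and lowered 1 FOXO target gene, in fits that raised 1191 and 1229 of all 15173 genes. CPI203 raised none of either list once JJN3 or RPMI-8226 was left out or both were averaged. Those fits called 0 of all 15173 genes for the CPI203 average effect, so these counts say nothing of the lists. Without JJN3, without RPMI-8226 and with both averaged LenDex raised 0, 1 and 1 FOXO target genes and 0, 1 and 0 anti-proliferative genes. Over all genes it then raised 2, 5 and 4.

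Upstream of FOXO, 2 of 24 genes of the PI3K-AKT pathway rose with CPI203 on average and 2 fell, with a median of -0.02. Over all genes 3.3% rose and 3.99% fell. PHLPP2, a phosphatase that dephosphorylates AKT, rose by 0.64 ± 0.14 (SE, limma adjusted p = 0.0327), with 0.10 in ARP1 against 0.94 and 0.89. TSC1, a brake on mTORC1, rose by 0.58 ± 0.13 (adjusted p = 0.033). The PI3K catalytic gene PIK3CG fell by 0.46 ± 0.10 (adjusted p = 0.0314), and INPP5D, the lipid phosphatase SHIP1 that opposes PI3K, fell by 0.46 ± 0.09 (adjusted p = 0.0245). None of these 4 passed without the JJN3 control array.

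With LenDex no PI3K-AKT gene passed the test, against 4.25% of all genes. The smallest p belonged to INSR, the insulin receptor gene and another FOXO target, at 1.36 ± 0.40 (SE, limma adjusted p = 0.0946), positive in 3 of 3 lines. Its levels under control, CPI203, LenDex and Combo were 6.92, 7.16, 10.14 and 9.86 on ARP1, 5.41, 4.62, 5.10 and 5.00 on JJN3, and 7.39, 7.0, 8.55 and 8.02 on RPMI-8226. The average LenDex difference of INSR was 2.95 in ARP1, 1.09 in RPMI-8226 and 0.03 in JJN3. PIK3R3, a PI3K regulatory subunit, was next at -0.30 ± 0.10 (adjusted p = 0.144).

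Of 20 genes for regulators and cofactors of FOXO proteins 2 rose with CPI203 and none fell. Over all genes 3.3% rose and 3.99% fell with CPI203, and 4.25% were called with LenDex. SIRT1, a deacetylase of FOXO proteins, rose by 0.66 ± 0.10 (SE, limma adjusted p = 0.0143), and the ubiquitin ligase gene STUB1 by 0.42 ± 0.08 (adjusted p = 0.0223), both in 3 of 3 lines. Without the JJN3 control array 1 gene rose, and none did once JJN3 or RPMI-8226 was left out or both were averaged. Those last fits called 0 of all genes for the CPI203 average effect. With LenDex none passed, with YWHAG, a 14-3-3 protein gene, at -0.28 (adjusted p = 0.0636) and SKP2, the ligase subunit that targets FOXO1, at -0.43 (adjusted p = 0.0956). Of 9 other forkhead genes FOXJ2 fell with CPI203 by 0.45 ± 0.09 (adjusted p = 0.0277), a call lost in each of those settings too. None passed with LenDex, where FOXN2 stood at -0.22 (adjusted p = 0.124) and FOXK2 at -0.29 (adjusted p = 0.159).

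The drugs were then examined on reporter genes, from lists also chosen with earlier results of these data known. The counts are therefore not an independent check that the drugs acted. Over all genes 3.3% rose and 3.99% fell with CPI203, and 1.73% and 2.52% with LenDex. Of 9 BET inhibitor reporter genes 7 rose with CPI203 and 1 fell, among them the histone gene H2BC21, which rose by 1.75 ± 0.17 (SE, limma adjusted p = 0.00577), and MYC, which fell by 0.51 ± 0.10 (adjusted p = 0.025). Leaving out the control array of JJN3 left 4 that rose and none that fell. None passed once JJN3 or RPMI-8226 was left out or both were averaged, where 0 of all genes were called for CPI203. With LenDex none of the 9 passed, with MYC at -0.31 (adjusted p = 0.136) and H2BC5 at 0.28 (adjusted p = 0.181). LenDex raised 5 of the 11 genes on the glucocorticoid list and lowered none, and 2, 3 and 3 rose without JJN3, without RPMI-8226 and with both averaged. Of the 5, FKBP5 rose by 1.87 ± 0.09 (adjusted p = 2.48e-05), with 2.01, 2.02 and 1.58 in ARP1, JJN3 and RPMI-8226. In the same lines TSC22D3 was at 4.55, 3.11 and 3.08 and DDIT4 at 2.51, 0.98 and 1.13. CXCR4 was at 2.55, 2.95 and 2.06 and TXNIP at 1.25, 0.62 and 0.81. PIK3IP1 was at 1.70, -0.12 and -0.07, and KLHL24 at 0.90, 0.75 and 0.84.

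**Figure D5:**
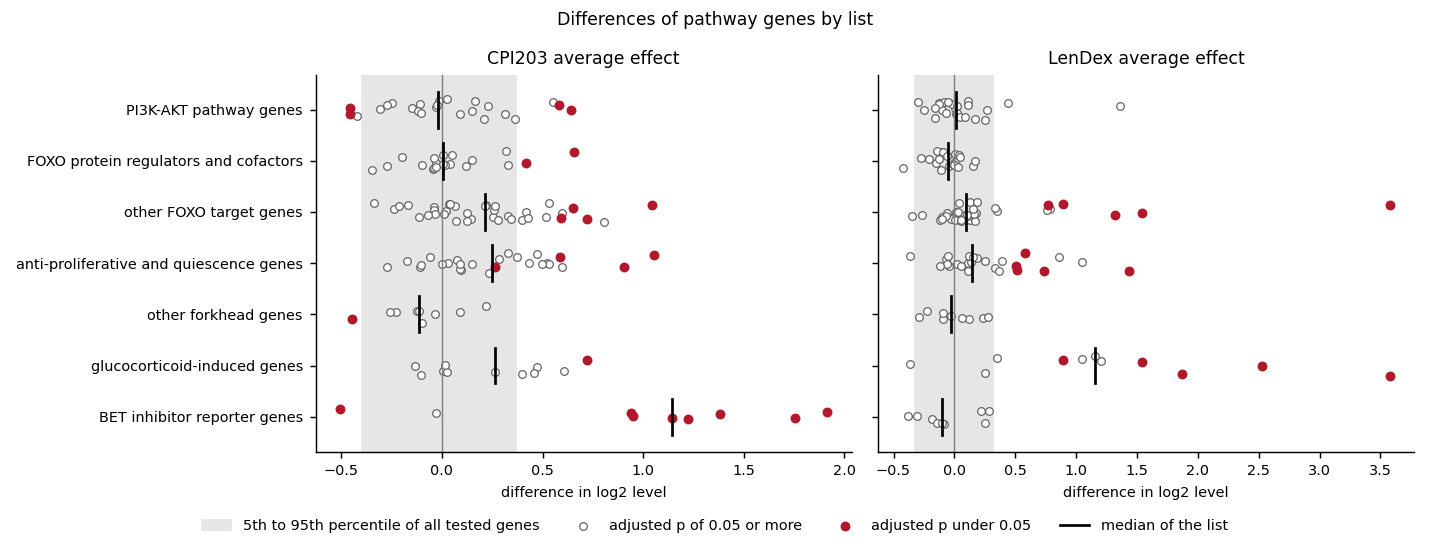
Difference in log2 level (x axis) with CPI203 (left) and LenDex (right) for the tested genes of each list (rows), with filled points at an adjusted p under 0.05, a black bar at the list median and a grey band from the 5th to the 95th percentile of all tested genes. The medians of the other FOXO target and anti-proliferative lists are 0.22 and 0.25 with CPI203, and that of the PI3K-AKT list is -0.02.

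The genes most like each of the 7 in pattern were found by Pearson r over the 12 arrays after subtraction of each line's mean, as a description over arrays that share lines and treatments. For KLHL24 they were HP1BP3 and GOLGB1 at 0.98 and USP11 at 0.97. PIK3IP1 was most like CD160 at 0.95 and CD74 and CXCL13 at 0.94, FOXO3 like ABCB4 and LETMD1 at 0.93 and CHST6 at 0.92, and FOXO1 like DNAJC12 at 0.94 and BMP4 and ANKFN1 at 0.91. CCNG2 was most like PIK3R1, a PI3K regulatory subunit gene, at 0.95, followed by TPRG1 at 0.92 and GSTO2 at 0.91. FOXO4 was nearest to OSCAR at 0.91 and RAB31 and ARHGAP21 at 0.89, and IRS2, whose levels were low throughout, to VAMP4 at 0.96, ATP6V1G2 at 0.90 and DEFB124 at 0.88. Between the 7 genes themselves r was highest for FOXO3 with PIK3IP1 at 0.71, KLHL24 with CCNG2 at 0.66, FOXO1 with FOXO3 at 0.62 and FOXO1 with PIK3IP1 at 0.61, and it was 0.01 for KLHL24 with FOXO3. The spread within each line was not scaled, so for FOXO1, FOXO3 and PIK3IP1 r weighs the ARP1 arrays most. Their SDs were 0.46, 0.32 and 1.12 in ARP1, and at most 0.29, 0.20 and 0.14 in the other lines.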

How the data were processed

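Per the submitters' processing notes, RMA was run in Affymetrix Expression Console 1.1, and the deposited level of each probe set is on a log2 scale, which was read from the values. RMA gives arrays a common distribution, so a change shared by most transcripts would not show. Joint normalisation of all 12 arrays is not given in the sources used here. Symbols of the platform annotation were updated through RefSeq: 45259 probe sets had 1 symbol, 1327 several and 2707 none, beside 93 controls. Each gene was represented by its probe set with the highest mean. A gene was tested if 3 or more arrays read at least 5, which left 15173 of 18239.

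Line and group were fitted over all arrays in limma 3.58.1 (R 4.3.3), with 6 residual degrees of freedom, two-sided moderated tests, and p-values adjusted by Benjamini-Hochberg across the genes tested. Line was the block because arrays sharing a replicate number are from the same line. Deviations from group means correlated from 0.82 to 0.94 within lines. Nothing says that a line's arrays came from separate cultures, and the number of arrays limits the precision. The members and lists (7 pathway and 5 marker lists) were chosen with earlier results of these data known. Named were the 7 genes, up to 4 called genes per direction and list by size in each average effect (the 2 of smallest p where none was called), and the 3 genes most like each member. In simulated data for the average effect of CPI203 the fit over 15173 genes found 84% of the genes set to change 1.5-fold and 98% of those set to 2-fold. For LenDex it found 86% and 96%. Of genes not set to change, 14 and 9 were called. The change was set equal in all 3 lines with independent normal noise, so these shares do not cover genes whose differences vary between lines. Alternatives were other level filters, single probe sets, a variance trend, cyclic loess, no line term, left-out arrays, and JJN3 averaged with RPMI-8226. Matched promoter windows were searched on both strands. The planned comparison of FOXO proteins was not analysed here.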

Additional observations from a re-analysis of the deposited data

Results flagged for a closer look

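CCNG2 differed with LenDex in opposite directions in ARP1 and JJN3. The average LenDex difference was 0.60 in ARP1, positive both without and with CPI203, and -0.19 in JJN3, negative both without and with CPI203. The ARP1 control array read 4.90, a low level, and the difference between these lines was not tested. A second CCNG2 probe set gave 0.30 in ARP1 and 0.44 in JJN3.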

How the results depend on the processing

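Without 1 array or line, calls ranged from 0 to 1015 for CPI203 against control, 0 to 298 for LenDex against control, 0 to 2219 for Combo against control, 0 to 2401 for the CPI203 average effect and 2 to 917 for the LenDex average effect, against 1, 70, 1388, 1105 and 645 in the fit of all arrays. Calls were most without ARP1. Without the JJN3 control array they were 0, 2, 300, 118 and 237. In the same order there were 0, 2, 3, 0 and 4 calls with JJN3 and RPMI-8226 averaged. With no replicate block for the lines there were 0, 1, 3, 0 and 1, and KLHL24 was not called. A variance trend with a robust fit called 317 for CPI203 alone, 287 for LenDex alone, and 1685 and 1029 for the CPI203 and LenDex averages. Cyclic loess called 3 for CPI203 alone, and a mean level of 6 or more called 137 for LenDex alone and 1008 for the LenDex average. Over single probe sets there were 6 calls for CPI203 alone, 2342 for Combo, and 1713 and 1149 for the averages. KLHL24 was also called for the LenDex average under cyclic loess, the trend, the higher level filter and without ARP1. It was chosen with values of these arrays known, so nothing is read from its calls. Its LenDex average was 0.46 and 0.48 on the other probe sets. For CPI203 the FOXO4 average was -0.17 under cyclic loess, -0.15 to -0.06 with arrays left out, -0.11 and -0.08 on 2 other probe sets and of opposite sign, at 0.12, 0.12, 0.04 and 0.02, on 4. That of CCNG2 was -0.20 on 1 probe set, and the LenDex average of IRS2 was 0.02 on the other. For these changes the cause was not tested. Of the other member values 136 moved by less than the spread between lines, among them the PIK3IP1 LenDex average, which was -0.09 without ARP1. No detection calls were used, so how far low probe sets lie above background is unknown.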
